A study of Mus musculus with 4 samples.

Results

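Mouse embryonic fibroblasts (MEFs) in the course of reprogramming were fixed, permeabilized, stained inside for Oct4 and Klf4, and sorted, and the comparison described here is the step at the Klf4 gate within cells that stained for Oct4. It sets the array of the Oct4+Klf4+EpCAM- fraction, below called the Klf4-positive array, against that of the Oct4+Klf4- fraction, below the Klf4-negative array. These are 2 of the 4 arrays of the study, and all 18193 genes named on the array were described. The other fractions, Oct4- and Oct4+Klf4+EpCAM+, were used to place levels beside those of the compared arrays. Their values also entered the floor, the background ceiling and the choice of probe set described below. In the labels, the Oct4+Klf4- cells carry no EpCAM gate and the Oct4- cells no Klf4 gate, so the compared fractions may differ in surface EpCAM as well as in Klf4. Nothing in the labels states a genotype, which factors were introduced and by what vector, when the cells were sorted, or whether the fractions shared a culture. Reprogramming converts a differentiated cell toward a pluripotent state with introduced transcription factors. With 1 array per fraction there is no replicate check and no test. The only check was whether the probe sets of a gene, separate groups of array probes for the same transcript, went the same way. In sorted bulk samples, fewer cells of a type and less RNA per cell cannot be told apart.

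Klf4 is a zinc finger transcription factor of the Krüppel-like family that binds GC-rich and CACCC elements. It is known as a reprogramming factor and as a factor of the differentiating epidermis, where it is needed for the skin barrier, and it can act on the E-cadherin gene. Fibroblasts that reprogram lose mesenchymal features and gain epithelial ones, a mesenchymal-to-epithelial transition in which cadherin junctions and keratin filaments replace stress fibres and fibrillar matrix.

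The transcript of the sorted protein was looked up as a check of the label. The brighter of the 2 Klf4 probe sets had log2 levels of 7.32, 6.24, 10.20 and 10.60 in the Oct4-, Klf4-negative, Klf4-positive and EpCAM+ arrays, which is 15.6-fold higher in the Klf4-positive than in the Klf4-negative array. The dimmer probe set went the other way, from 5.69 to 2.67, a log2 difference of -3.03. The label is therefore borne out by the brighter probe set alone. Klf4 and Zmynd8 were the 2 genes of the array whose probe sets differed by at least 2-fold in opposite directions. Pou5f1, which encodes Oct4, had a log2 difference of 0.18 between the compared arrays, and Epcam was 2.54-fold higher in the Klf4-positive array (levels 5.20 and 6.54), although that fraction was gated as EpCAM-negative. Sox2 and Nanog, core pluripotency factors, lay at or below the background ceiling of 2.94 on both arrays, with levels of 2.12 and 2.09 for Sox2 and 2.58 and 2.46 for Nanog. That ceiling is the highest reading of the 27 low bacterial control probe sets, for which the samples hold no matching transcript.

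Calls rested on size alone: a 2-fold or wider gap between the arrays, with the brighter level at or above a floor of 4.53, which is the median value of the table. On this basis 965 genes were higher in the Klf4-positive array, 5.30% of the 18193, and 786 were lower, 4.32%, together 9.62%. Of the 10946 genes that reached the floor on 1 of the compared arrays, those shares were 8.82% and 7.18%. The median log2 difference was 0.01 over all genes and 0.03 over those reaching the floor, with an interquartile range from -0.27 to 0.36 over the latter, and 70.7% of these lay within 1.5-fold. Differences of at least 4-fold were held by 367 higher and 250 lower genes, those of at least 8-fold by 153 and 76, and those of at least 16-fold by 42 and 19. Array medians lay between 4.49 and 4.55, and 75.8% and 76.1% of genes lay above the ceiling on the Klf4-negative and Klf4-positive arrays. Across the genes reaching the floor, Pearson's r between the compared arrays was 0.868; genes are not replicates. The Gapdh control probe sets at the 3′ and 5′ transcript ends differed by 1.30 on the Klf4-negative and 1.04 on the Klf4-positive array, and those of Actb by -0.05 and -0.06, and the part of RNA quality in the results was not tested.

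**Figure D1:**
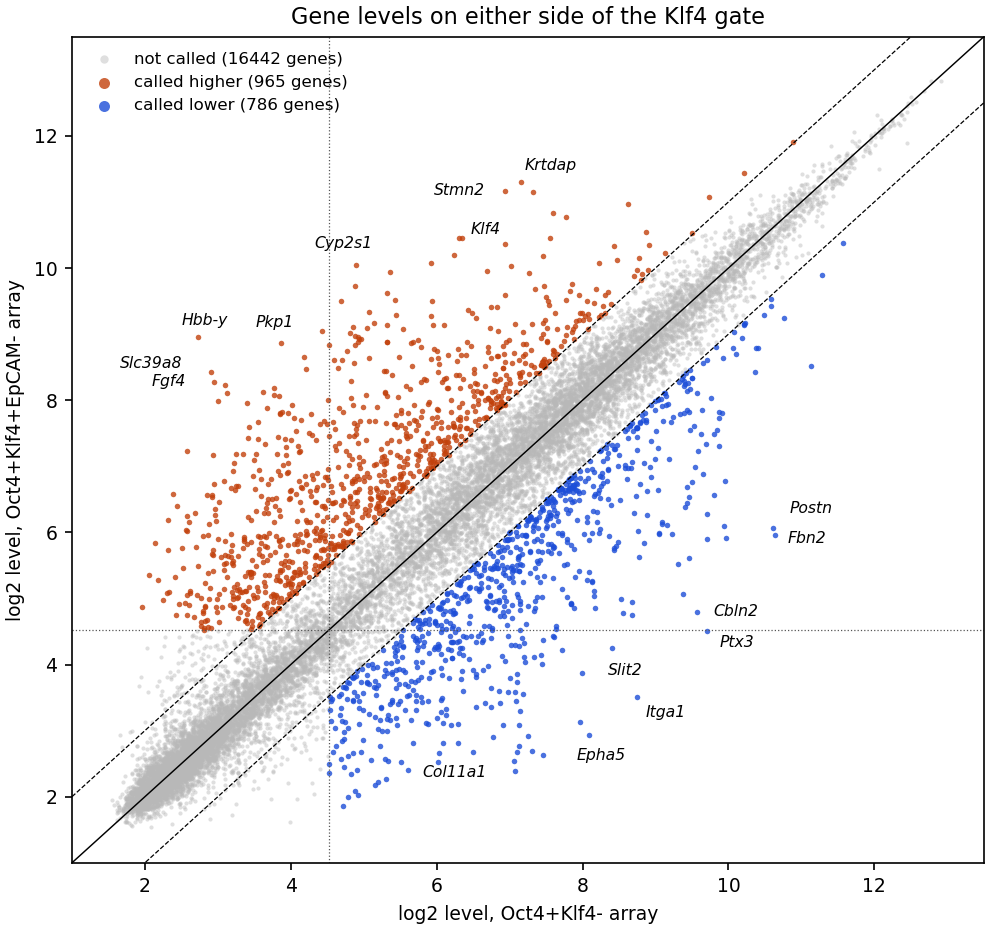
Log2 level of each named gene on the Oct4+Klf4- array (horizontal) and on the Oct4+Klf4+EpCAM- array (vertical), 1 point per gene, with the 965 genes called higher and the 786 called lower in colour. The solid line is equality, the dashed lines are 2-fold, and the dotted lines mark the floor of 4.53, so the coloured genes of both sides lie outside the dashed band and past the floor on 1 array.

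Probe sets of the same gene mostly went together. Of the 965 higher genes, 377 had 2 or more probe sets at or above the floor, and in 369 of these (97.9%) all went up, in 256 (67.9%) each by at least 2-fold. Of the 786 lower genes, 385 had at least 2, and in 380 (98.7%) all went down, in 258 (67.0%) each by at least 2-fold. Among genes that were not called, all probe sets went the same way in 67.3% of 4731. The median log2 difference of the higher genes was 1.65 by the brightest probe set and 1.53 by the next, and that of the lower genes -1.53 and -1.41. Among the largest differences and the called list members, 162 genes had 2 or more such probe sets, and 32 of them had 1 that fell short of 2-fold or went the other way. For the genes described below this value is given beside the fold, except where it came near 2-fold, with log2 differences of 0.91 for E2f2, 0.90 for H2-K1, 0.83 for Egfr, 0.78 for Flt1, 0.77 for Pfkp, -0.83 for Jam3 and -0.99 for Tgfbr3. Another 588 higher and 401 lower genes rested on 1 probe set reaching the floor, so they have no such check. This agreement covers the measurement on these 2 arrays and holds nothing on the spread between cultures or sorts.

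**Figure D2:**
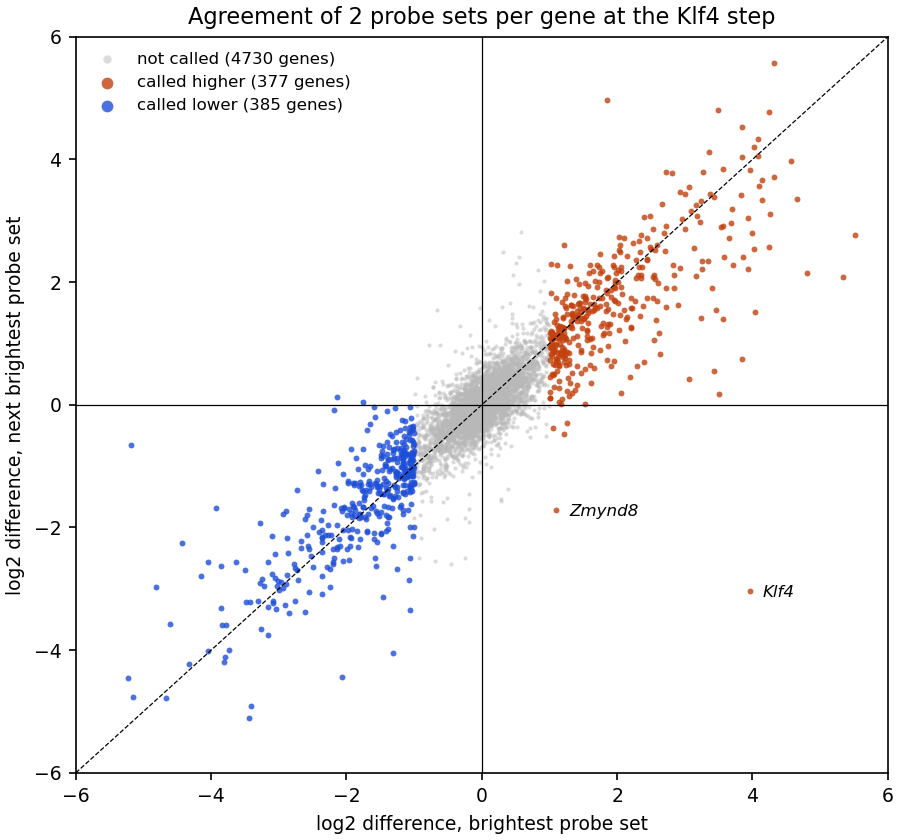
Log2 difference (Klf4-positive minus Klf4-negative array) of the brightest probe set of a gene (horizontal) and of its next brightest (vertical), 1 point per gene that has 2 or more probe sets at the floor or above. Most called genes lie near the dashed line of equality, with r = 0.877 over 5492 genes, and Klf4 and Zmynd8 lie apart at the lower right.

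The genes furthest apart on the higher side had varied known roles. Hbb-y, an embryonic beta-like globin, had levels of 2.0, 2.73, 8.95 and 7.86 in the Oct4-, Klf4-negative, Klf4-positive and EpCAM+ arrays. It was at least 64.4-fold higher by its brightest probe set, a bound because the dimmer level lay below the ceiling. That probe set reads several transcripts, and the 3 probe sets of the gene gave log2 differences from 3.94 to 6.22. Fgf4, a growth factor of the early embryo, had levels of 2.95, 2.95, 8.28 and 8.73 and was 40.4-fold higher. All 4 of its probe sets went up, with log2 differences from 2.08 to 5.34. Thus both genes were near or below background in the Klf4-negative array and well above the floor in the Klf4-positive one. Fetub, a secreted protease inhibitor, was 23.9-fold higher (levels 5.36 and 9.94), and Ceacam10, a secreted member of the carcinoembryonic antigen family, 23.6-fold (3.40 and 7.96). Ret, the receptor tyrosine kinase for glial-cell-derived neurotrophic factor, had levels of 2.98, 3.77, 8.08 and 8.03 and was 19.9-fold higher, its 2 probe sets giving log2 differences of 4.32 and 5.58. Gfra1, the coreceptor that Ret uses for that ligand, went the other way, with levels of 5.09, 7.11, 2.68 and 2.50, at least 17.9-fold lower. Atp2a3, a calcium pump of the endoplasmic reticulum, was 19.9-fold higher, and Mal, a lipid raft protein of apical membranes, 19.2-fold. Crmp1 and Stmn2, both regulators of the neuronal cytoskeleton, were 22.6-fold and 18.9-fold higher, and Tubb3, the neuronal beta-tubulin, 19.8-fold. Shisa3 was at least 18.8-fold higher, the peptide hormone gene Ucn3 18.4-fold, and the proton channel gene Otop1 at least 12.5-fold.

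On the lower side, Itga1, the alpha chain of a collagen-binding integrin, had levels of 4.37, 8.75, 3.52 and 2.77, so the Klf4-negative array stood above all others, and it was 37.5-fold lower in the Klf4-positive array. Ptx3, a soluble pattern recognition protein, was 36.5-fold lower by its brightest probe set, while its other probe set gave a log2 difference of -0.66. Pcsk5, a proprotein convertase, had levels of 2.60, 7.45, 2.64 and 2.34 and was at least 22.8-fold lower, and Ldb2, a LIM domain cofactor, had 2.83, 7.30, 2.69 and 2.44 and was at least 20.6-fold lower. These levels stood high on the Klf4-negative array and at background on the rest. Vgf, a secreted neuropeptide precursor, was at least 19.8-fold lower, the neuronal adhesion gene Negr1 at least 11.7-fold, and Asxl3, a Polycomb-associated protein, 16.5-fold. Grb14, an adaptor that restrains the insulin receptor, was 14.4-fold lower with levels of 7.41, 9.94, 6.10 and 5.34. Pdgfc, a platelet-derived growth factor, was also 14.4-fold lower, with levels of 8.98, 9.45, 5.61 and 5.05, and thus stood high on both Klf4-negative and Oct4- arrays.

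**Figure D3:**
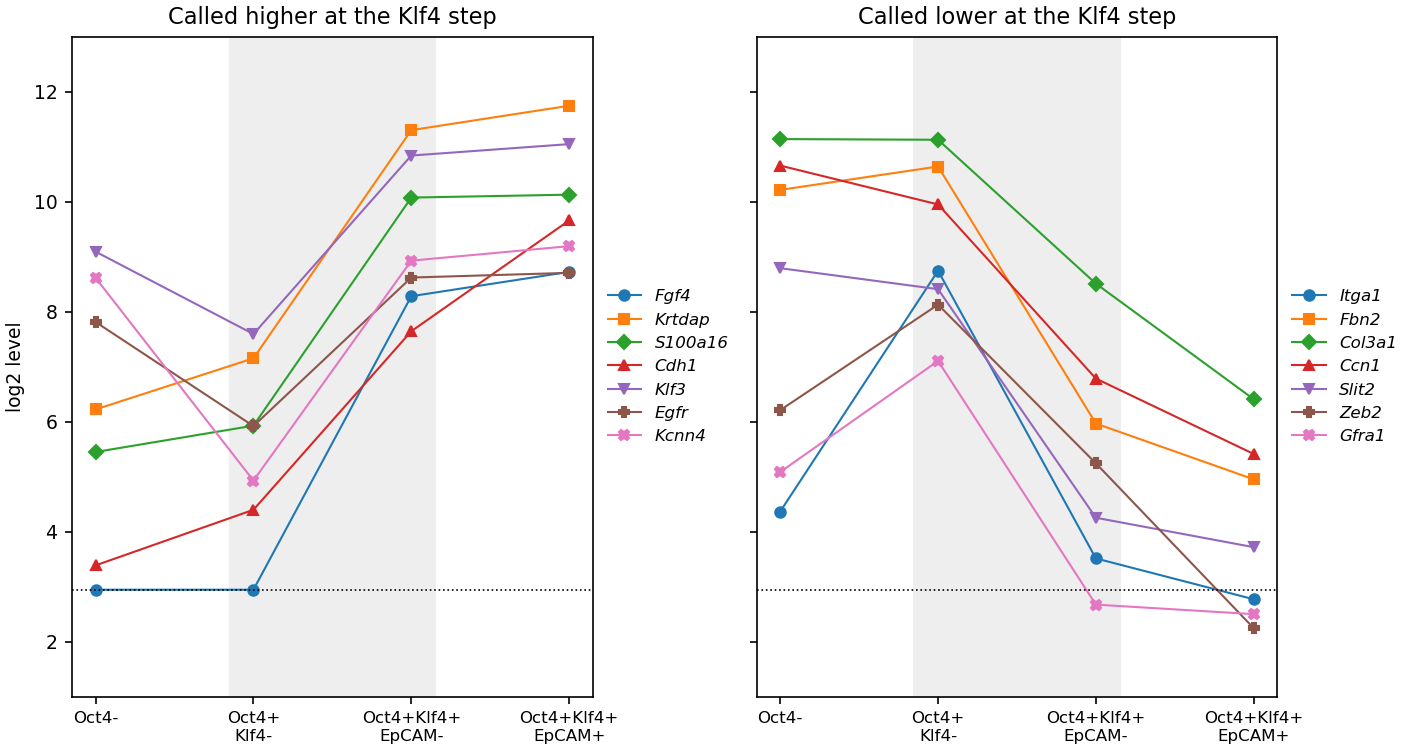
Log2 levels on the 4 arrays, 1 point per array and 1 line per gene, for 7 genes called higher (left) and 7 called lower (right) at the Klf4 step, which is shaded. The dotted line is the background ceiling of 2.94; Kcnn4 and Egfr stood higher on the Oct4- array than on the Klf4-negative one, and Itga1 and Gfra1 were highest on the Klf4-negative array.

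Of the 23 Klf and Sp genes on the array, which share the family's zinc finger domain, 7 were higher and 0 lower. Their median log2 difference was 0.19 against 0.01 over all genes. The counts of this and every later list stand against shares of 5.30% higher and 4.32% lower over all named genes. Klf3, a repressor of the family, had levels of 9.09, 7.59, 10.84 and 11.05 and was 9.48-fold higher, with all 6 probe sets going up. Klf13 was 3.86-fold higher (a further probe set gave 0.59 on the log2 scale), Klf10 3.78-fold, Klf12 3.31-fold, Sp6 2.41-fold (0.43 by its other probe set) and Klf16 2.37-fold. Klf4 itself is the remaining member called. Klf3, Klf10 and Klf13 had lower levels in the Klf4-negative than in the Oct4- array (Klf10 8.43 and 7.0, Klf13 7.0 and 6.52). Klf5, which shares targets with Klf4, differed by 0.20, and Klf6 by -0.80.

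Of 19 early or broad pluripotency genes, 6 were higher and 1 lower (median 0.36). L1td1, an RNA-binding protein of the early embryo, stood 15.7-fold higher (4.96 and 8.93), the zinc finger factor Sall4 12.6-fold (3.53 and 7.18), and Trim71, a regulator of microRNA targets, 3.01-fold (5.81 and 7.40). Lin28a, which blocks let-7 maturation, was at least 4.49-fold higher, and Fbxo15 2.16-fold (3.47 and 4.58, just above the floor). Alpl, the alkaline phosphatase used as a stain for reprogrammed colonies, went the other way, with levels of 4.68, 8.08, 6.83 and 7.15, 2.37-fold lower. Of 19 late or naive genes, 3 were higher and 1 lower (median 0.09), and 14 stayed below the floor. Those higher were Nr0b1, an orphan nuclear receptor (at least 10.2-fold), Tet2 (2.34-fold) and Lefty2 (2.02-fold; 3.79 and 4.81, near the floor). Tbx3 was lower (2.86-fold, with -0.66 on the log2 scale by its other probe set).

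Among 21 epithelial transcription factors and splicing regulators, 7 were higher and 1 lower (median 0.83). Tfap2c, a factor of trophoblast and surface ectoderm, was 6.15-fold higher (levels 3.39, 3.19, 5.81 and 7.34). Grhl1 and Grhl2, grainyhead factors of epithelia, were 5.10-fold and 2.52-fold higher, the other probe set of Grhl2 giving a log2 difference of 0.19, and Esrp1, which directs epithelial splicing, 3.75-fold (4.06 and 5.97, with 8.75 on the EpCAM+ array). Tfap2b was 4.71-fold lower, unlike its paralogues Tfap2a (2.48-fold higher) and Tfap2c. Trp63, the master factor of stratified epithelium, stayed below the floor (4.26 and 3.56).

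Of 37 mesenchymal transcription factors, 9 were lower and 2 higher (median -0.10). Osr1 was 9.08-fold lower, Ebf1, a B-cell and stromal factor, 8.61-fold by the brightest of 4 probe sets that all went down, and Zeb2, a repressor of E-cadherin, 7.39-fold (levels 6.21, 8.13, 5.24 and 2.25). Foxc1 was 3.51-fold lower and Twist1, a factor of mesenchyme, 2.14-fold. Foxc2, a paralogue of Foxc1, was 5.40-fold higher (6.79, 3.11, 5.54 and 6.22), so the Klf4-negative array was the low one. Snai2 and Zeb1, which also repress E-cadherin, were not called, with differences of 0.13 and -0.86.

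Of 82 members of the 3 junction lists, 25 were higher, 4 lower and the rest not called. Of 18 adherens junction genes 6 were higher and 1 lower (median 0.40), of 19 desmosome and hemidesmosome genes 9 and 1 (median 0.93), and of 45 tight junction and polarity genes 10 and 2 (median 0.16, which was -0.02 with the floor at the 75th percentile). Cdh1, E-cadherin, had levels of 3.39, 4.40, 7.65 and 9.66 and was 9.49-fold higher, and Cdh2, N-cadherin, had 8.62, 8.39, 6.41 and 4.49 and was 3.95-fold lower. Jup, the plakoglobin of both junction types, was 5.79-fold higher, and the nectins Nectin4 and Nectin1 4.88-fold (log2 difference 0.63 by the other Nectin4 probe set) and 4.35-fold, while Ctnnb1, beta-catenin, differed by -0.24. In desmosomes, the plakin Dsp was 9.59-fold higher (6.69 and 9.95) with all 3 probe sets going up, the cadherins Dsc2 at least 9.44-fold and Dsc3 5.83-fold, and Pkp1 24.5-fold. Pkp2, the plakophilin of simple epithelia and heart, was 6.36-fold lower (8.46 and 5.79, 3 of 3 probe sets), the reverse of Pkp1. In hemidesmosomes, which anchor basal cells to laminin, Itgb4 was 11.9-fold and Itga6 2.87-fold higher. Among tight junction claudins, Cldn11 was 11-fold, Cldn5 9.28-fold and Cldn3 8.83-fold higher, and Crb3, an apical polarity protein, 8.31-fold by its brightest probe set (4.34 and 7.40) but with a log2 difference of 0.41 by the next. Jam3 was 2.75-fold lower and Tjp1, which encodes ZO-1, differed by 0.49.

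Of 32 keratin and other intermediate filament genes, 12 were higher and 2 lower (median 0.26). Krt8, a keratin of simple epithelia, was 11.8-fold higher (levels 5.53, 5.94, 9.50 and 11.34), whereas its partner Krt18 differed by 0.01. Krt19, a further keratin of simple epithelia, was 6.35-fold higher (levels 9.04, 6.74, 9.41 and 10.85). Called keratins of stratified epithelium were Krt13 (8.61-fold), Krt14 (8.54-fold), Krt16 (7.47-fold), Krt6b (at least 7.43-fold), Krt1 (at least 4.67-fold) and Krt17 (2.97-fold). Krt5, the usual partner of Krt14, differed by -0.23. The 2 lower members were the neurofilaments Nefm (28.6-fold; levels 2.51, 7.97, 3.13 and 2.68) and Nefl (7.62-fold; 3.80, 9.46, 6.53 and 5.80), both highest on the Klf4-negative array. Vim, vimentin, differed by -0.56.

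Of 33 epidermal barrier genes, 10 were higher and 0 lower (median 0.25). Krtdap, a secreted protein of differentiating keratinocytes, had levels of 6.22, 7.15, 11.30 and 11.75 and was 17.7-fold higher. S100a14, a calcium-binding protein of epithelia, was 13-fold higher, Alox12b, the lipoxygenase of the lipid barrier, 8.37-fold, Dmkn, dermokine, 7.76-fold, and the cross-linking enzyme Tgm3 6.35-fold. Cnfn, cornifelin, was 6.19-fold higher, Sbsn, suprabasin, 3.91-fold, and Ivl, involucrin, differed by -0.23. Of 25 surface proteases and inhibitors of epithelia, 8 were higher and 1 lower (median 0.28). The kallikreins Klk10, Klk11 and Klk13 were 5.76-fold, 4.61-fold and at least 3.95-fold higher, and St14, the membrane protease matriptase, 3.24-fold together with its inhibitors Spint2 (2.57-fold) and Spint1 (2.38-fold). Serpinb9, an inhibitor of granzyme B, was 5.17-fold lower.

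Some genes called in the same direction lay next to each other. In chromosome order over the 18145 genes placed by the RefSeq gene table, 20 runs of at least 3 neighbouring genes were called the same way. Of these, 17 were higher and 3 lower, and they held 66 genes, against 1751 called in either direction over all named genes. Whether calls lay together more often than in another gene order was not tested. The longest run held 6 genes of the S100 cluster on chromosome 3. In order, their log2 differences were 2.38 for S100a1, 1.66 for S100a13, 3.70 for S100a14, 4.15 for S100a16, 2.33 for S100a3 and 1.45 for S100a4. The next genes along, S100a5, S100a6, S100a8 and S100a9, had 0.02, 0.33, -0.26 and 0.32, so the run ended there. S100a16 had levels of 5.45, 5.93, 10.08 and 10.13, both of its probe sets going up. On chromosome 11, Krt19, Krt14, Krt16 and Krt17 were a run of 4, with Krt15 (0.42) between them and Krt13 (3.11). S100a1, S100a16 and Krt14 were among the genes measured by probe sets that read several transcripts. Sbsn, Dmkn and Krtdap, neighbours on chromosome 7, were another run. Lower runs were Gulp1, Col3a1 and Col5a2 on chromosome 1, Hoxb5os, Hoxb6 and Hoxb5 on chromosome 11, and Cfap69, Steap2 and Steap1 on chromosome 5. The run of Slc2a10, Eya2 and Zmynd8 includes a gene whose probe sets disagreed.

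**Figure D4:**
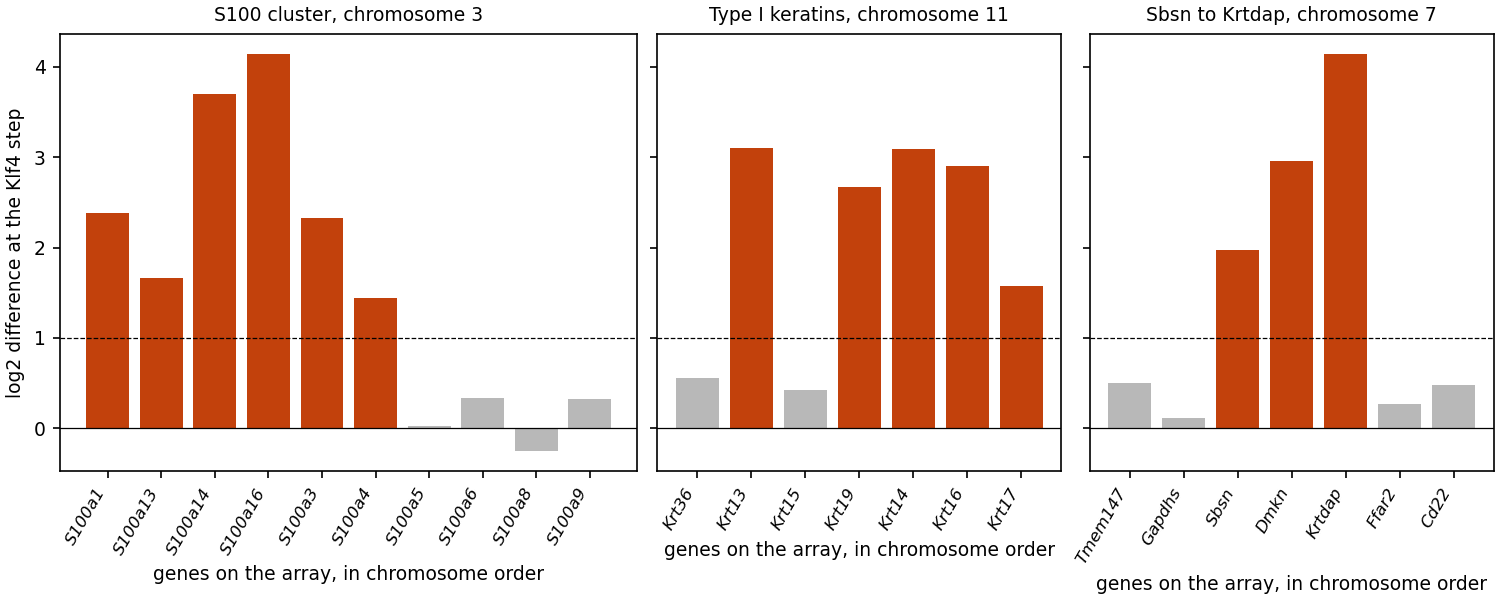
Log2 difference at the Klf4 step of neighbouring genes on the array, in chromosome order and not to scale along the chromosome, with genes called higher in colour and the dashed line at 2-fold. Of the genes shown, 6 of 10 in the S100 cluster, 5 of 7 at the type I keratins and 3 of 7 around Sbsn, Dmkn and Krtdap were called higher; the genes shown were cut around the calls, and the whole S100 window held 7 higher genes of 49 and the whole type I keratin window 5 of 28.

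The promoters of the chromosome 7 run are shown because these 3 neighbouring genes moved together. Crb3, Krt8, Ccn1 and Myl9 stand for apical polarity, simple epithelium, matricellular signalling and contraction. Every promoter shown holds a match to the motif marked in it, so they are examples and not a sample of the called genes. How common each motif was is given below. Each window is the 250 bases before 1 start site from RefSeq on GRCm38.p6, written 5′ to 3′ on the gene's strand. Dmkn has 3 start sites and Crb3 has 2, and the other windows of these genes are not shown. Capitals mark the match to AP-1 (TGANTCA) in Sbsn at chr7:30751221-30751470 (+), Dmkn at chr7:30763506-30763755 (+) and Krtdap at chr7:30787655-30787904 (+). They mark the KLF core (GGGTGTG) in Crb3 at chr17:57061951-57062200 (+), the E-box (CAGGTG) in Krt8 at chr15:102004343-102004592 (-), the TEAD motif (GGAATG) in Ccn1 at chr3:145649986-145650235 (-) and the CArG box in Myl9 at chr2:156775214-156775463 (+). Either strand could match.
Sbsn: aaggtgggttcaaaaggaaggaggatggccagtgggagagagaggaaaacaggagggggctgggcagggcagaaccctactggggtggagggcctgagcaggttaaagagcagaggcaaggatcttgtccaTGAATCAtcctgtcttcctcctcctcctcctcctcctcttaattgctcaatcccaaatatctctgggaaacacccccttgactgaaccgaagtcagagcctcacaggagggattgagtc
Dmkn: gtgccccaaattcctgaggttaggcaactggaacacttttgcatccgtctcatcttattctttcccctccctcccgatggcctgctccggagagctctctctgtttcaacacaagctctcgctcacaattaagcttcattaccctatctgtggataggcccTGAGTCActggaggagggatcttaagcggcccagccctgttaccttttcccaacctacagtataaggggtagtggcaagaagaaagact
Krtdap: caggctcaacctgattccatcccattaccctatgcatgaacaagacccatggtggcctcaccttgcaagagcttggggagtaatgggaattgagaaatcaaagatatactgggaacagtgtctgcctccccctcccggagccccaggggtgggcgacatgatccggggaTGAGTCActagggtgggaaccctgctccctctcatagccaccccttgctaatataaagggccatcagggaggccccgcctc
Crb3: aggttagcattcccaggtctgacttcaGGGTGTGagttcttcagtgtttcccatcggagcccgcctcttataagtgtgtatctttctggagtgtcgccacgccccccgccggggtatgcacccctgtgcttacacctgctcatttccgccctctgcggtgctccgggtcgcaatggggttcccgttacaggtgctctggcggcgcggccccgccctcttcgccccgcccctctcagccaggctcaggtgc
Krt8: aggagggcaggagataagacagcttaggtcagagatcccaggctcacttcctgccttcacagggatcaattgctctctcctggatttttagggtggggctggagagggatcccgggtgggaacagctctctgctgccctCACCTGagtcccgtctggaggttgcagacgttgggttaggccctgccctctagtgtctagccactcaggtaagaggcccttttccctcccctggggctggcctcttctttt
Ccn1: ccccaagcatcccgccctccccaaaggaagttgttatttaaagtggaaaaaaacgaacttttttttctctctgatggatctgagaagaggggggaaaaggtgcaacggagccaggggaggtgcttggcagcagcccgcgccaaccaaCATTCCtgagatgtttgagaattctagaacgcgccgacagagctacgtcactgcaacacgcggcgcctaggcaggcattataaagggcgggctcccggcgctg
Myl9: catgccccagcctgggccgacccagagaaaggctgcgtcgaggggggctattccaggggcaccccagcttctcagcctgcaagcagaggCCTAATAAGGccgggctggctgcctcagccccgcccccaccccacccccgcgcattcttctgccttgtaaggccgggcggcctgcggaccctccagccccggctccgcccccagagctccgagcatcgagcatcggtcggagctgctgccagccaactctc

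Promoter sequences matched 725 of the 965 higher genes, 619 of the 786 lower genes and 14452 of all 18193, some with several start sites. The AP-1 motif stood in 7.25% of the promoters of higher genes, 4.67% of those of lower genes and 5.62% of all, so most members of either set lacked it. The KLF core, a form of the CACCC element, stood in 10.2%, 7.0% and 7.62%, and the GC box (GGGCGG) in 56.2%, 54.6% and 48.3%. The E-box stood in 21.7%, 14.9% and 17.2%, the TEAD motif in 11%, 12.4% and 11.5%, the CArG box in 1.23%, 2.22% and 1.23%, and the octamer bound by Oct4-type factors (ATGCAAAT) in 2.45%, 1.52% and 1.30%. These are descriptions of letters in these windows and not of binding.

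Of 21 trophoblast genes, 7 were higher and 0 lower (median 0.73). Plet1, a surface protein of trophoblast progenitors, had levels of 3.10, 3.08, 6.78 and 8.36 and was 12.9-fold higher. Hand1, a factor of giant cells and early mesoderm, was 6.62-fold higher (4.95 and 7.68), and Tead4, a factor of trophectoderm, 5.83-fold (5.63 and 8.18). Gata3 was 2.69-fold higher (3.27 and 4.70, near the floor). Tfap2c, Krt8 and Bmp4 complete the 7, and Gata3, Krt8 and Tfap2c are also on the epithelial or keratin lists.

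In growth factor signalling, 8 of 27 FGF ligands, receptors and feedback genes were higher and 2 lower (median 0.25). Besides Fgf4, the ligands Fgf15 (at least 6.93-fold) and Fgf18 (4.88-fold) were higher, and Fgf7, a mesenchymal ligand for epithelial receptors, was 3.27-fold lower. Of the receptors, Fgfr2 was 2.19-fold lower, by probe sets that read several transcripts. Fgfr1 differed by 0.82. Fgfbp1, a carrier that releases FGFs from matrix, was 8.20-fold higher (6.10 and 9.14). Genes known to be induced by FGF and ERK signalling were higher, namely Dusp4 (6.68-fold), Spry4 (4.38-fold, 4 of 4 probe sets), Etv4 (3.11-fold) and Etv5 (2.97-fold), while Dusp6 (0.36), Spry1 (-0.13) and Spry2 (0.25) were not called. In the EGF receptor family 3 of 16 genes were higher and 0 lower (median 0.19), the receptors Erbb3 (8.96-fold; 5.27 and 8.43) and Egfr (6.50-fold; levels 7.81, 5.92, 8.62 and 8.71, 6 of 6 probe sets) and the ligand Btc (4.04-fold).

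Of 42 ligands, receptors and inhibitors of the TGF-beta superfamily, 6 were higher and 4 lower (median -0.05). Inhbb, a subunit of activin B, was 10.4-fold higher (levels 6.48, 3.57, 6.94 and 7.18), the activin receptor Acvr1b 4.58-fold by the brighter of 2 probe sets (log2 difference 0.45 by the other), and Fst, the inhibitor that binds activin, 5.13-fold lower. Bmp4 was 2.83-fold higher and its inhibitor Grem1 2.41-fold lower. The receptors Tgfbr3 and Tgfbr1 were 3.13-fold and 2.56-fold lower, while Tgfbr2 differed by -0.05. Of 19 TGF-beta and SMAD target genes 7 were lower and 3 higher (median -0.17), with Tgfbi 4.87-fold lower and Id1, an inhibitor of helix-loop-helix factors, 5.62-fold higher. Id3, its paralogue, was 2.29-fold lower.

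Of 54 Wnt pathway genes 9 were lower (16.7%) and 4 higher (7.41%, near the share over all genes), with a median of 0.02. Rspo3, an amplifier of Wnt signalling, had levels of 4.95, 7.13, 2.76 and 2.77 and was at least 18.2-fold lower. Sfrp2, a secreted modulator of Wnt ligands, was 17.4-fold lower (7.99 and 3.87), and Sfrp1 3.12-fold higher with 4 of 4 probe sets. The ligands Wnt5a and Wnt9a were 8.61-fold and 5.77-fold lower, the receptors Fzd1 and Fzd2 5.22-fold and 3.53-fold, and the feedback gene Axin2 2.53-fold. Lef1, a nuclear effector of the pathway, was 6.04-fold higher (4.87 and 7.46). Of 26 Notch and Hedgehog genes 6 were lower and 3 higher (median 0.09). Notch3, the Notch receptor of mural cells, was 9.92-fold lower (8.17 and 4.86) and Notch4 3.90-fold higher, while the Notch targets Hes1 and Nrarp were 4.11-fold and 3.04-fold higher. The Hedgehog effector Gli2 and coreceptor Cdon were 3.28-fold and 3.38-fold lower.

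Of 19 genes of the insulin-like growth factor system, 4 were lower and 2 higher (median -0.08). Igf1 had levels of 3.76, 7.18, 3.55 and 3.01 and was 12.4-fold lower, and the proteases Htra1 and Pappa, which cut its binding proteins, were 5.12-fold and 4.25-fold lower. Of 53 axon guidance genes, 12 were lower and 5 higher (median -0.14). Epha5, an ephrin receptor, had levels of 3.14, 8.09, 2.93 and 2.42 and was at least 35.4-fold lower with 4 of 4 probe sets. Slit2, a repellent ligand, was 17.8-fold lower (8.41 and 4.25), Epha3 10.9-fold and the ligand Efnb2 9.75-fold. Ntn1, netrin 1, was 14.4-fold higher (4.41, 3.35, 7.19 and 6.90), against a log2 difference of 0.75 by its dimmer probe set, and the semaphorins divided, with Sema4d (5.03-fold), Sema4b (4.67-fold) and Sema3b (4.60-fold) higher and Sema3d (at least 5.24-fold) and Sema3a (3.52-fold) lower. Of 25 neural markers 7 were lower and 4 higher (median -0.03). Cbln2, a synapse organizer, was 27.3-fold lower (3.14, 9.56, 4.79 and 3.23) and Gap43, a protein of growing axons, 6.73-fold, whereas Sox1, a factor of neural progenitors, was 16.5-fold higher (2.90, 5.05, 9.10 and 9.03).

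Matrix genes lay mostly on the lower side among those called. Of 56 elastic fibre, proteoglycan and matricellular genes 27 were lower and 3 higher, with a median log2 difference of -0.93, and of 34 fibril and network collagens 12 and 3, with a median of -0.35. Fbn2, fibrillin 2, was 25.5-fold lower (10.64 and 5.97), Postn, periostin, 23.3-fold (levels 7.76, 10.61, 6.07 and 3.86), Thbs1, thrombospondin 1, 13.9-fold, and Fbln5, fibulin 5, 8.71-fold. Vcan, versican, was 5.11-fold lower with 4 of 4 probe sets, and Sparc 2.62-fold (11.28 and 9.89). Dcn, decorin, was 5.12-fold higher, with levels of 6.76, 8.62, 10.97 and 10.98, against the direction of its relatives Lum (6.89-fold lower) and Ogn (7.67-fold lower). Among elastic fibre, proteoglycan and matricellular genes, the others on the higher side were Prelp, a further relative (at least 3.58-fold), and Ecm1 (2.18-fold). Of the collagens, Col11a1 was at least 17.3-fold, Col8a1 16.5-fold, Col1a2 8.27-fold, Col5a1 6.63-fold, Col3a1 6.13-fold and Col1a1 3.76-fold lower. Col1a1 stood at 11.33, 8.06, 6.15 and 5.26, while Col3a1 stood at 11.14, 11.13, 8.51 and 6.41, so these partners differed in level between the Oct4- and Klf4-negative arrays. Col6a3 was 8.89-fold higher (6.93, 3.51, 6.66 and 4.95), Col15a1 5.72-fold and Col6a1 2.22-fold. Of 24 collagen-modifying enzymes and chaperones 4 were lower and 3 higher (median -0.28), with the cross-linking oxidase Loxl1 9.18-fold lower and Lox 2.03-fold higher.

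Of 29 integrins and laminins, 6 were higher and 4 lower (median 0.21). Lama3, the alpha chain of the epithelial laminin that binds the Itga6 and Itgb4 integrin, was 19-fold higher (3.20, 4.86, 9.11 and 9.56). Lama2, the alpha chain of mesenchymal and muscle basement membrane, was 7.24-fold lower (4.77, 8.12, 5.27 and 4.40), and the integrin chain Itga8 stood at 6.68, 9.38, 5.06 and 3.82, lower too. Itgb1, the common beta chain, differed by -0.61. Of 37 matrix proteases and inhibitors 9 were lower and 5 higher (median -0.20), among them Serpinf1, an antiangiogenic serpin (8.92-fold lower), Adamts1 (7.99-fold lower), Plau, the plasminogen activator urokinase (2.85-fold lower), and its receptor Plaur (4.35-fold higher).

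Of 37 contractile genes and targets of serum response factor (SRF), 13 were lower and 2 higher (median -0.79). Acta2, smooth muscle actin, had levels of 10.40, 8.48, 5.86 and 4.79 and was 6.16-fold lower. Cnn2, calponin 2, was 5.87-fold lower (9.86 and 7.31), Tagln, transgelin, 4.81-fold, the actin cross-linker Palld 4.49-fold and the myosin light chain Myl9 4.25-fold. Mylk, the kinase that activates myosin light chains, was 4.62-fold higher (6.81, 4.80, 7.01 and 7.87). Srf itself differed by -0.96 and its cofactor Mrtfa by -0.79, just short of 2-fold. Of 30 genes on the list of YAP and TEAD targets, which includes the factor Tead4, 7 were lower and 3 higher, Tead4 among them (median -0.29). Rbms3 was 9.53-fold lower, Ccn1, a matricellular target, 8.97-fold (levels 10.66, 9.95, 6.79 and 5.41, 4 of 4 probe sets), its relative Ccn2 8.49-fold and Amotl2, a feedback inhibitor, 4.76-fold. Nt5e, an ectonucleotidase, was 15.6-fold higher (4.92 and 8.88), although 1 of its 3 probe sets gave -0.02. Yap1 and Wwtr1, which encode YAP and TAZ, differed by 0.15 and -0.20.

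Of 33 Hox genes, which mark position along the body axis, 9 were lower and 0 higher (median -0.51). Hoxb5 was 3.59-fold lower (4.03, 6.71, 4.86 and 3.71), Hoxd10 3.19-fold, and Hoxb6 and Hoxa13 2.54-fold each. Of 32 cytokine and chemokine genes 4 were lower and 1 higher (median -0.08), with Csf1, the macrophage growth factor, 15.2-fold lower (4 of 4 probe sets), Ccl7 4.99-fold and Cxcl1 4.10-fold lower, and Ptgs2, the inducible prostaglandin synthase, 3.24-fold higher. Of 29 interferon response and MHC class I genes 4 were higher and 2 lower (median 0.02). H2-D1 and H2-K1, class I heavy chains, were 2.29-fold and 2.26-fold higher, both by probe sets that read several transcripts. Ifit2 was 6.66-fold lower, and Tap1, the peptide transporter, 4.40-fold lower by its brighter probe set and differing by 0.12 by the other. Of 22 immediate early genes 2 were lower (9.09%), Jun (2.83-fold) and Fos (2.79-fold), the components of AP-1. On the higher side was 1 (4.55%), Nr4a1 (5.11-fold), and the median was 0.15.

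Of 30 genes of the integrated stress response and heat shock, 7 were higher and 1 lower (median 0.33). Nupr1, a stress-induced chromatin protein, was 9.35-fold higher (8.72, 5.64, 8.87 and 9.19). The heat shock genes Hspa1a, Hspb1 and Hspa1b were 4.84-fold, 4.22-fold and 3.41-fold higher, Chac1, which degrades glutathione, 4.28-fold, and Trib3, an inhibitory pseudokinase, 3.14-fold. The response's factors Atf4 and Ddit3 differed by 0.21 and -0.52. Of 23 genes of p53, senescence and cell death, 3 were lower and 0 higher (median -0.45), namely the cyclin kinase inhibitor Cdkn2c (4.08-fold), the death receptor Fas (2.78-fold) and Pmaip1 (2.30-fold), while Cdkn1a, p21, differed by 0.04.

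Slc39a8, a zinc and manganese importer, had levels of 2.34, 2.91, 8.43 and 8.35 and was at least 44.9-fold higher. Its other probe set gave a log2 difference of 2.77. Slc40a1, the iron exporter ferroportin, was 4.43-fold higher, and the metalloreductases Steap1, Steap2 and Steap3 were 8.0-fold, 4.97-fold and 2.41-fold lower. In all, 3 of 32 metal handling genes were higher (9.38%) and 4 lower (12.5%), with a median of -0.08. Of 35 gap junction and ion channel genes 4 were higher and 3 lower (median 0.06). Aqp3, a water and glycerol channel of skin, was 17.1-fold higher (4.60, 6.35, 10.45 and 10.96). The calcium-gated channels Ano1 (8.11, 5.43, 9.52 and 9.34) and Kcnn4 (8.62, 4.93, 8.93 and 9.19) were 16.9-fold and 16-fold higher, and both stood lower on the Klf4-negative array than on any other. Of 29 amino acid transporters 4 were higher and 1 lower (median 0.07), the glutamine carrier Slc38a5 12.2-fold and the arginine carrier Slc7a3 11.1-fold higher. Of 31 cytochrome P450 genes 3 were higher (9.68%) and 2 lower (6.45%), with a median of 0.13. Cyp2s1, an epithelial P450, was 35.6-fold higher (4.90 and 10.05), Cyp4f39, which makes barrier lipids in skin, 28.7-fold (4.88 and 9.73), and Cyp1b1, a P450 of mesenchyme, 11.3-fold lower (9.17, 7.72, 4.22 and 3.0).

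Of 47 lipid and sterol genes 8 were higher (17.0%) and 3 lower (6.38%), with a median of 0.18. Aldh3a1, an aldehyde dehydrogenase of the cornea, was 15.4-fold higher (3.85 and 7.79) and the retinoic acid binding protein Crabp1 6.33-fold (10.79, 7.26, 9.92 and 10.40), while Fabp4, a fatty acid carrier of fat cells, was 14.4-fold lower (7.15 and 3.30). Of 31 glycolysis genes 5 were higher and 1 lower (median 0.05), with the lactate exporter Slc16a3 3.35-fold and the glucose transporter Slc2a3 3.03-fold higher. The phosphofructokinases divided, Pfkp 2.40-fold higher and Pfkm 2.29-fold lower. Of 24 S100 and annexin genes 8 were higher and 1 lower (median 0.06), Anxa8 being 10.8-fold higher (9.0, 6.93, 10.36 and 10.10) and Anxa10 at least 3.45-fold lower. Of 23 imprinted genes 5 were lower and 2 higher (median -0.06), with Nnat 3.54-fold and Peg3 3.05-fold lower and Phlda2, a brake on placental growth, 3.73-fold higher.

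Several lists held no calls, or calls near or below the shares over all named genes, 5.30% higher and 4.32% lower. No gene of 33 for the respiratory chain and ATP synthase, of 22 ribosomal protein genes or of 22 housekeeping genes was called in either direction, with medians of 0.03, -0.03 and 0.05. Of 40 cell cycle and replication genes 2 were higher, Mybl2 (2.10-fold, and 0.49 on the log2 scale by its other probe set) and E2f2 (2.07-fold), and 0 lower (median 0.16), and Mki67, a marker of cycling cells, differed by 0.03. Of 53 chromatin and DNA methylation enzymes 3 were higher and 3 lower (5.66% each, median 0.02). The 5-methylcytosine oxidases went opposite ways, Tet1 5.87-fold lower (5.34, 6.33, 3.78 and 3.36; 3 of 3 probe sets) and Tet2 2.34-fold higher (7.14, 8.07, 9.30 and 9.86; 2 of 2). Of 23 germ line genes 1 was higher, Rhox5 (2.41-fold), and 1 lower, Tdrkh (2.37-fold).

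**Figure D5:**
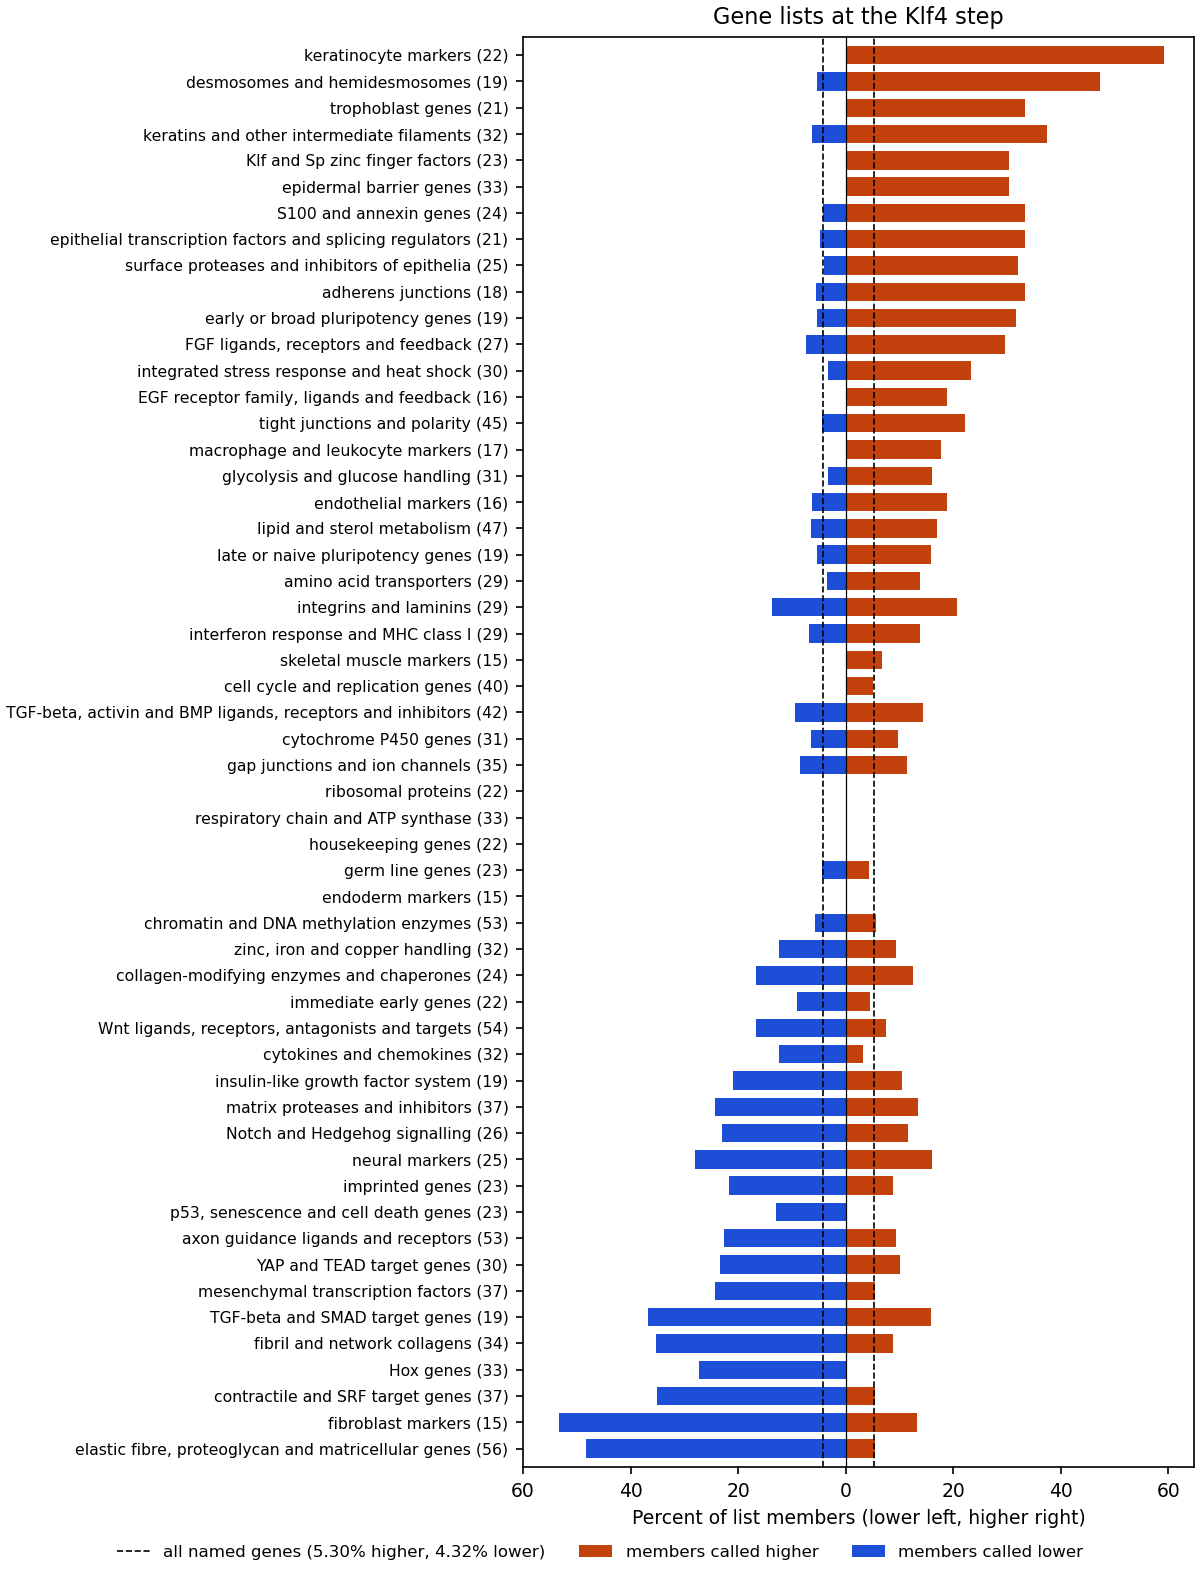
Percent of the members of each gene list on the array that were called higher (right) or lower (left) at the Klf4 step, for lists with at least 15 members, whose number stands in brackets, ordered by percent higher minus percent lower. The dashed lines are the shares over all named genes, 5.30% higher and 4.32% lower; in that order keratinocyte markers, desmosomes and trophoblast genes stand at the top, and elastic fibre and proteoglycan genes and fibroblast markers at the bottom.

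Markers of other cell types that a gate could hold were read as whole lists. Of 22 keratinocyte markers 13 were higher and 0 lower (median 1.5), and the sum of their linear levels went from 1362 on the Klf4-negative to 6070 on the Klf4-positive array, against 1830 on the Oct4- and 10368 on the EpCAM+ array. The higher keratinocyte markers Pkp1, Itgb4, Krt6b, Krt14, Krt16 and Krtdap are also on the desmosome, keratin or barrier lists, so these lists are not separate observations. Of the 15 fibroblast markers 8 were lower and 2 higher (median -1.04), with sums of 12150 and 9159. S100a4 (2.72-fold) and Dcn were the 2 higher ones, and Thy1, a surface glycoprotein of fibroblasts, was 9.46-fold lower (9.81 and 6.57). Of 17 macrophage and leukocyte markers 3 were higher and 0 lower (median 0.00), with sums of 206 and 984 and 11 markers at or below the ceiling on each array, and the sum on the Klf4-positive array was mostly Laptm5 (4.69 and 9.50). Laptm5's 3 probe sets reaching the floor went up, but all of them read several transcripts. Spn, sialophorin of leukocytes, was 22.3-fold higher, and Ms4a4b 35.1-fold. Of 16 endothelial markers 3 were higher and 1 lower (median 0.20), with sums of 461 and 952. The largest fold was that of Cldn5 (9.28-fold; 3.59 and 6.81), which is also on the tight junction list, but the sum on the Klf4-positive array was mostly Tek. Flt1, a receptor for vascular endothelial growth factor, was 5.79-fold higher with 4 of 4 probe sets and the angiopoietin receptor Tek 3.32-fold (3.33, 7.49, 9.22 and 8.74), and the defining markers Pecam1, Cdh5 and Kdr were below the floor on both arrays. Of 10 erythroid markers 1 was higher, Hbb-y, with a median of 0.06. Of 15 skeletal muscle markers 1 was higher (6.67%) and 0 lower, of 15 endoderm markers 0 were called, and of 14 mesendoderm markers 1 was higher (7.14%) and 0 lower. Over all named genes the shares were 5.30% higher and 4.32% lower, so calls this few in lists this short are not read as a result. Of 14 cartilage, bone and fat markers 3 were lower (21.4%). The part of any such cells in the results was not tested.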

How the data were processed

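Cells were fixed, permeabilized, stained and sorted, and RNA was recovered with the RecoverAll kit and amplified with the Ovation Pico WTA kit, per the labels' protocols. Log2 probe set levels were deposited by the authors after RMA, a method that subtracts background, equalizes array distributions and summarizes probes, per the submitters' processing notes, which name no version. Amplification of RNA from fixed cells can change a level with the transcript's integrity.

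Of 45037 probe sets besides 64 controls, 34945 had 1 gene symbol in the platform annotation, 932 several and 9160 none. Each gene was read by the probe set brightest on average across the 4 arrays. Differences were taken with pandas 2.3.3 and numpy 2.4.6 in Python 3.11.15. Where the dimmer level was at or below the ceiling, the fold was taken against the ceiling and written "at least". The 58 gene lists and the genes named were chosen with earlier results of these data known. Named genes came from the 25 largest differences on each side, leaving out uncharacterized genes and those whose probe sets went opposite ways, from list members, and from runs of neighbouring genes. Listed genes absent from the table were not analysed here. The calls were tested on simulated data first.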

Additional observations from a re-analysis of the deposited data

How the results depend on the processing

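The counts of 965 higher and 786 lower genes moved by more than 1.5 times under stricter rules: to 495 and 443 with the floor at the 75th percentile, to 547 and 383 with a 3-fold rule, and to 369 and 380 among genes whose probe sets, at least 2, go the same way. Taking the mean of all probe sets of a gene gave 823 and 634, probe sets that read 1 transcript alone 831 and 695, no floor 1068 and 860, and subtraction of the median difference 929 and 818. With probe sets that read 1 transcript alone, the log2 differences of 3 named genes changed sign: Laptm5 to -0.45 from 4.81, Fgfr2 to 0.41 from -1.13 and Myof to 0.018 from -1.74. In these 3 the probe sets used instead lay at or below the background ceiling on both arrays. Of the 335 genes named or open to naming by rule, 163 moved by more than 0.169 on the log2 scale when a gene was the mean of all its probe sets. That size is the scatter between probe sets of a gene. With probe sets that read 1 transcript alone, 36 moved by more than that, beside the 3 above, and 264 did not. The rest have no value under that setting and are not covered by this check. The medians of 15 of the 58 lists changed sign under at least 1 alternative, all of them at most 0.26 in size as reported. When the mean of the 2 levels had to reach the floor, the median of keratins and other intermediate filaments went from 0.26 to -0.21 and that of Notch and Hedgehog genes from 0.09 to -0.65. No paired analysis was possible because each fraction has 1 array. That number limits the precision of every value.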

Other observations

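Of 10092 probe sets without 1 gene name, 3437 reached the floor on 1 of the compared arrays, and 183 were higher and 283 lower by the same rule, with log2 differences from -5.10 to 4.99. Here the lower side was the larger, while among named genes the higher side was. With the genes ranked by mean level into 5 bins, of which the lowest can hold few calls because of the floor, the third bin held 491 higher and 374 lower genes and the fifth, the brightest, 93 and 98. The control probe sets of Tfrc, the transferrin receptor, were higher in the Klf4-positive array by 1.23 at the 3′ end, 1.02 in the middle and 0.99 at the 5′ end. That of pyruvate carboxylase was lower at the 3′ end, by a log2 difference of -2.0, against -0.17 at the 5′ end, where its level lay below the floor on both arrays.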
